A study of Xenopus laevis with 9 samples.

Results

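The genes described are those of the collagens and of the other proteins that build the corneal stroma and its basement membranes in *Xenopus laevis*. They were chosen by gene symbol, as collagens, small proteoglycans, fibronectin and matricellular proteins, elastic fibre proteins, nidogen and the enzymes that modify collagen. The rule used no measured value, but the genes were chosen with earlier results of these data known. A total of 48 probesets carried 1 such symbol, of 15476 probesets on the array after the controls were left out. They stood for 31 genes. *X. laevis* keeps a pair of copies of many genes, called homoeologs and marked .L and .S, and with these counted apart there were 36 symbols. Keratocan, decorin, periostin, lysyl oxidase and the laminins were not analysed here.

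The study compared corneas undergoing cornea to lens transdifferentiation (CLT), in which a tadpole grows a new lens from its cornea, with sham operated corneas and with the lens itself. All tadpoles were wildtype. The labels give stage 50 for the operation, where the study's methods also take in the next stage. In R a flap of outer cornea was raised, the inner cornea was torn open, the lens was taken out and the flap was laid back. In S the flap was raised and laid back with the inner cornea and the lens left in place. Corneas of both kinds were dissected 3 days later with some epidermis attached, so that both had been cut and had healed for the same time. L was the whole lens, excised at the operation, and the lenses came from tadpoles whose corneas were later used for R. The labels give a pool of 5 lenses or of 7 to 8 corneas for each array, and the study's methods give larger pools. The arrays were L1, L2 and L3, R1, R2 and R3, and S1, S3 and S4. No unoperated cornea was among them. Each pool had its own array, so the p values measure the spread of pools and of array handling together. The number of arrays limits the precision.

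The stroma is the thick transparent layer of the mature cornea. It is made of fibrils of type I and type V collagen whose width and spacing are set by small leucine-rich proteoglycans such as lumican and biglycan, and it is secreted by fibroblast-like keratocytes. The pools here were tadpole corneas with some epidermis, and no layer was measured apart. The lens has no stroma, but is enclosed in a capsule, which is a thick basement membrane of type IV collagen, laminin, nidogen and heparan sulphate proteoglycans laid down by the lens cells. Fibronectin, tenascin-C and the thrombospondins are matrix proteins known from wounds and from growing tissue.

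Values are probeset intensities on a linear scale after RMA, a method that corrects background, scales arrays to each other and sums the probes of a probeset. The 5th percentile of an array lay between 0.984 and 1.06, and where a group mean was below it the size of a difference is not exact. Array medians lay between 2.99 and 3.29. The upper quartile was 8.99 to 9.86 in L, 17.8 to 20.1 in R and 17.5 to 20.4 in S. Lens and cornea arrays therefore did not share 1 distribution, and small lens differences can depend on how arrays are scaled. Log2 values of the 9 arrays were fitted together in limma and tested two-sided, with Benjamini-Hochberg adjustment over the 15476 probesets and a threshold of 0.05. The spread was fitted over all 9 arrays, so intervals and p for R against S also carry the scatter of the lens arrays. Lens markers fitted the labels, since the summed intensity of 7 crystallin and lens fibre genes was 7610 to 7855 in L, 9.69 to 55.3 in R and 7.90 to 8.98 in S. Retina markers (13 genes) summed to 98.1 to 137 in S, but to 207 in R1, 664 in R2 and 125 in R3, and to 265, 356 and 165 in L1, L2 and L3. The S sums came largely from gnb1.S (83.5 to 123), and every other retina marker read 2.33 or less in S. The sum of R3 also came largely from gnb1.S (100.6). The retina marker rom1.L read 69.7, 288 and 7.15 in R. A large part of the L sums came from gnb1.S (77.1, 82.5 and 50.0) and nrl.S (73.0, 68.8 and 67.0). The L sums were therefore not taken as a measure of retinal tissue. Some photoreceptor markers were nonetheless above S in every lens array and highest in L2. Of these, rom1.L read 52.7, 84.2 and 24.1 in L1 to L3, against 0.430 to 0.713 in S. Likewise prph2.S read 16.5, 30.4 and 4.48 in L, against 1.15 to 1.26 in S. In L3, guca1a.L and rlbp1.L did not lie above S. The part of retinal RNA in the lens values of matrix genes was not tested. S4 lay nearer to the mean of S1 and S3 than separate pools would, with a variance ratio of 0.232 where equal and independent errors give 0.75. Probesets in which S4 lay between S1 and S3 made up 48% of all, against 35.5% for R2 between R1 and R3 and 35.2% for L2 between L1 and L3. No call between R and S was made among the 48 probesets with S4 or without it.

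Matrix genes were far lower in the lens than in the sham operated cornea. A total of 35 of the 48 probesets, from 23 genes, were lower in L than in S, where 30.6% of all probesets were. Only nid2.L and 1 probeset of thbs3.L were higher, where 22.9% of all were, and 11 did not pass the test. The median log2 difference of L from S was -3.56 over the 48 probesets and 0.02 over all. Many of all the probesets had low values. Among those with a mean log2 intensity of at least 2, 33 of 35 matrix probesets were lower in L, beside 3733 of 6869. The medians there were -4.86 and -0.85. That mean was taken over all arrays, most of them corneas, so probesets high in the cornea alone also passed. These counts are therefore no separate support for the lower lens values. In bulk tissue, fewer cells of a type and less RNA per cell cannot be told apart. In 9 of the 35 the lens mean lay below the 5th percentile, and with 8 added to every intensity the differences of these 9 were -3.96 to -1.21.

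No matrix probeset passed the test between corneas undergoing CLT and sham operated corneas. Of all probesets, 0.485% were higher in R and 0.64% were lower. At an unadjusted p under 0.05 there were 6 of the 48 (12.5%), beside 14.5% of all probesets. The R values lay wholly above the S values in 6 and wholly below them in 2, and these shares compare with 12.3% and 9.82% of all probesets. The median log2 difference of R from S was 0.15 over the 48 and 0.06 over all, and it was -0.08 without S1 and 0.40 without S3. The comparisons of L and of R with S share the S arrays, so their values are given side by side and were not set against each other.

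**Figure D1:**
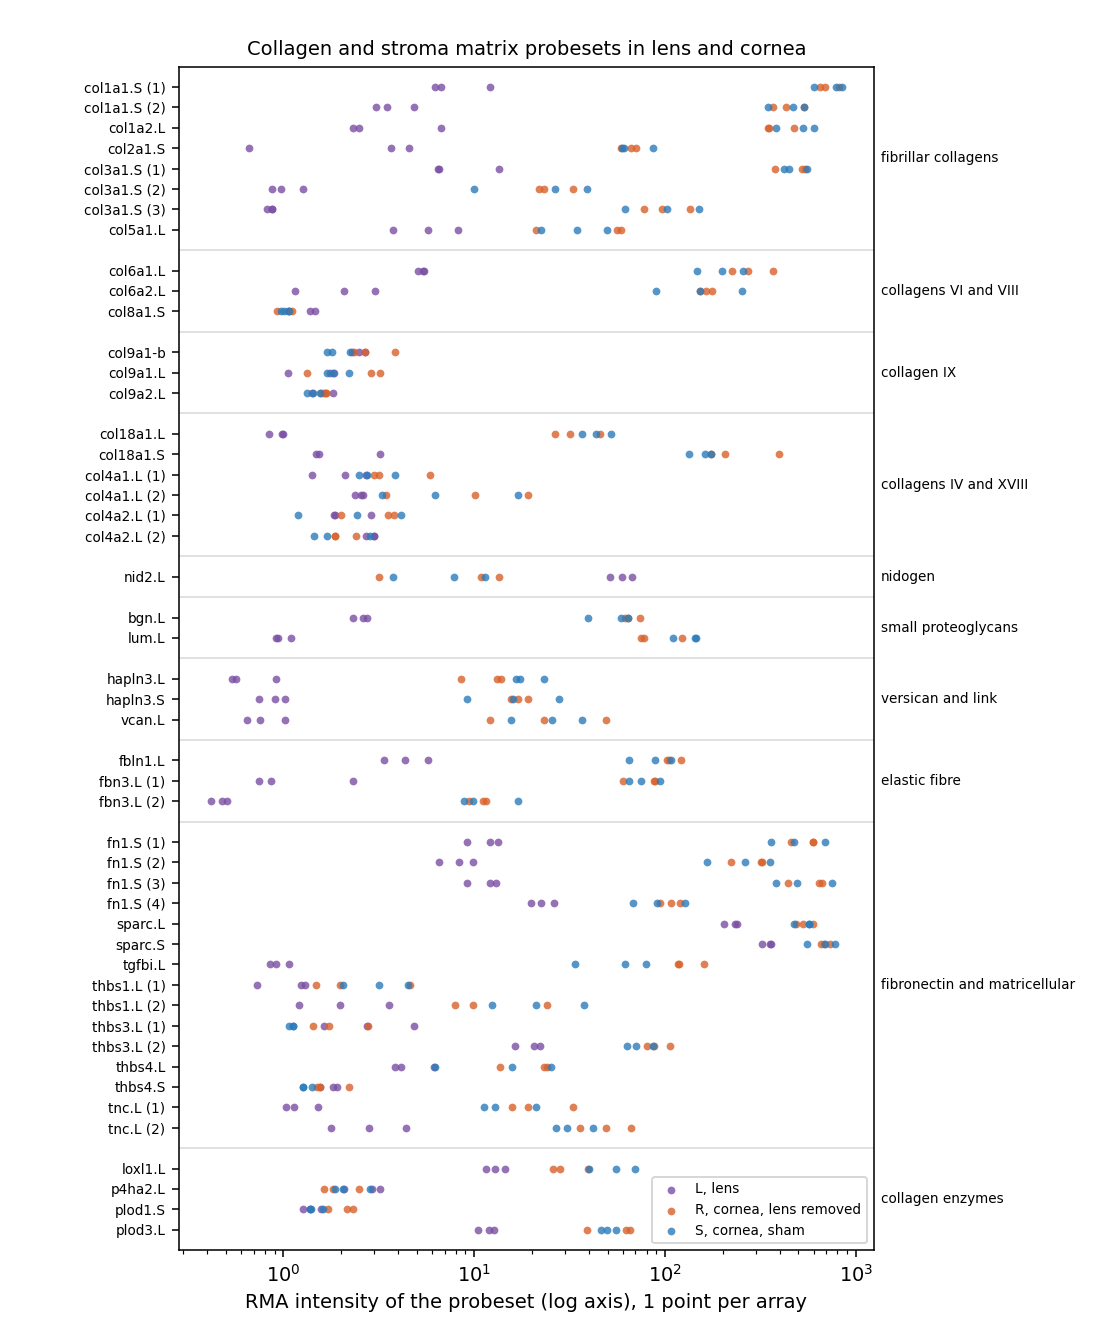
Intensity of each of the 48 matrix probesets (log axis, linear RMA values) in the 3 L, 3 R and 3 S arrays, 1 point per array, grouped by the role of the protein, with numbers in brackets, in the order of the probeset IDs, where a symbol has several probesets. The R and S points lie together on the right for the fibrillar collagens, with the L points between 0.658 and 13.6, while nid2.L shows the opposite order.

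The fibrillar collagens form the bulk of the stroma. All 8 of their probesets were lower in L than in S, with log2 differences from -7.19 to -2.59 and a median of -6.17. Type I collagen is a trimer of the products of col1a1 and col1a2. Probeset 1 of col1a1.S read 6.74, 12.2 and 6.23 in L1 to L3, 649, 815 and 686 in R1 to R3, and 601, 846 and 786 in S1, S3 and S4. Probeset 2 of col1a1.S read 3.07, 4.83 and 3.49 in L, 368, 428 and 538 in R, and 344, 533 and 467 in S. The chain col1a2.L read 2.32, 6.71 and 2.50 in L, 344, 471 and 349.5 in R, and 381, 601 and 531 in S. In each of the 3 probesets L2 was the highest lens array, and the R and S values overlapped. The log2 differences of L from S were -6.53 (SE 0.27), -6.89 (SE 0.25) and -7.19 (SE 0.39), with adjusted p of 1.18e-07, 5.62e-08 and 5.39e-07 from limma. The last of these is a 146-fold difference.

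For R against S the same 3 type I collagen probesets gave log2 differences of -0.05, -0.01 and -0.37. The 95% intervals ran from -0.65 to 0.56 for probeset 1 of col1a1.S, from -0.56 to 0.55 for probeset 2 and from -1.24 to 0.51 for col1a2.L. The intervals of col1a1.S left out changes of more than 0.65 on the log2 scale in either direction, and that of col1a2.L was wider. The scatter of the lens values of col1a2.L (2.32, 6.71 and 2.50) also entered its interval.

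Type III collagen, coded by col3a1, is a fibrillar collagen of pliable tissues and of healing wounds. Of its 3 probesets, numbered in the order of their IDs, probeset 1 read 13.6, 6.50 and 6.50 in L, 375, 538 and 524 in R, and 418, 555 and 444 in S. Probeset 3 read 0.876, 0.872 and 0.821 in L, 96.2, 135 and 77.5 in R, and 61.7, 151 and 102 in S. Probeset 2 read 1.26, 0.870 and 0.977 in L, 23.2, 32.9 and 21.8 in R, and 9.95, 38.9 and 26.5 in S. In the last of these S1 read less than any R array and S3 more than any, and the log2 differences of R from S were 0.01, 0.23 and 0.03 for probesets 1, 2 and 3. The differences of L from S were -5.82, -4.41 and -6.84, the latter pair from lens means below the 5th percentile.

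Type V collagen (col5a1) starts the type I fibrils and limits their width in the cornea. The probeset of col5a1.L read 8.25, 3.76 and 5.73 in L, 56.3, 59.1 and 21.2 in R, and 22.4, 49.9 and 34.7 in S. Its log2 difference of L from S was -2.59 (SE 0.46, adjusted p 0.00122 from limma), the smallest of the fibrillar group, and that of R from S was 0.29 (95% interval -0.76 to 1.33). Type II collagen (col2a1) is the main collagen of cartilage and is also made in the embryonic cornea and the vitreous. The probeset of col2a1.S read 3.65, 4.53 and 0.658 in L, 59.0, 70.7 and 65.9 in R, and 61.0, 86.8 and 59.7 in S, a log2 difference of L from S of -4.94 (SE 0.61). A further 2 probesets that are annotated to both homoeologs of col2a1, and so are not among the 48, gave -4.33 and -4.14 for L against S and -0.22 and -0.20 for R against S. Among cartilage markers, sox9.S, the transcription factor that drives col2a1 in chondrocytes, had means of 1.80 in R and 1.34 in S, and the 3 cartilage markers together summed to 5.52 to 10.9 in R and 4.99 to 5.57 in S.

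Type VI collagen forms beaded filaments between the fibrils, and both of its measured chains were lower in the lens. The chain col6a1.L read 5.06, 5.41 and 5.44 in L, 223, 271 and 368 in R, and 148, 257 and 198 in S. The chain col6a2.L read 2.08, 3.03 and 1.15 in L, 153, 176 and 165 in R, and 89.2, 254 and 153 in S. The log2 differences of L from S were -5.21 (SE 0.25) and -6.29 (SE 0.42). For R against S they were 0.52 (95% interval -0.03 to 1.08, adjusted p 0.374) and 0.12 (-0.82 to 1.06) from limma, with R3 the highest cornea array for col6a1.L and S3 for col6a2.L.

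Collagens VIII and IX were low in every array, and none of their 4 probesets passed the test between the tissues. Type VIII collagen is made by the inner corneal endothelium for its basement membrane. Its probeset col8a1.S lay between 0.928 and 1.47 in the 9 arrays, close to the 5th percentile, and its difference of L from S was 0.34, which passed only without L3 (0.49, adjusted p 0.0408 from limma) or with trended and robust moderation. Type IX collagen coats type II fibrils in cartilage and, in chick embryos, the early corneal stroma. The 3 probesets of col9a1-b, col9a1.L and col9a2.L lay between 1.06 and 3.85, with log2 differences of L from S of 0.39, -0.33 and 0.16. The R values of col9a1-b (2.69, 2.34 and 3.85) lay above the S values (1.80, 1.69 and 2.24), with a log2 difference of 0.61 and an adjusted p of 0.238 from limma. Those of col9a2.L (1.58, 1.68 and 1.66) also lay above S (1.55, 1.34 and 1.42), with a log2 difference of 0.19.

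The small leucine-rich proteoglycans lumican and biglycan bind collagen fibrils. The probeset of lum.L read 1.09, 0.939 and 0.912 in L, 75.2, 122 and 77.3 in R, and 109.5, 144 and 146 in S. That of bgn.L read 2.63, 2.32 and 2.76 in L, 63.7, 74.2 and 62.1 in R, and 39.7, 63.9 and 58.8 in S. Lumican was therefore close to the lowest readings of the array in all 3 lens pools, and its log2 difference of L from S was -7.07, with no exact size, and -3.96 with 8 added to every intensity. Biglycan gave -4.37 (SE 0.21, adjusted p 2.56e-07 from limma), or 20.7-fold. In the corneas the signs for these genes were opposite. The log2 difference of R from S was -0.57 for lum.L (95% interval -1.07 to -0.06, adjusted p 0.292) and 0.33 for bgn.L (-0.14 to 0.79, adjusted p 0.509) from limma. For lum.L only R2 (122) overlapped with S, and without R2 its difference was -0.79, with an adjusted p of 0.0931. Over the alternatives its adjusted p from limma ran from that value to 0.61.

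Versican is a large proteoglycan that binds hyaluronan, and link proteins such as Hapln3 fix proteoglycans to that chain. The 3 probesets of vcan.L, hapln3.L and hapln3.S read 0.537 to 1.02 in the lens, below or near the 5th percentile, and were lower there than in S, with log2 differences of -4.95, -4.86 and -4.17, again not exact in size. In the corneas vcan.L spanned 12.2, 23.2 and 48.8 in R and 15.6, 36.9 and 25.5 in S. The homoeologs of hapln3 gave unlike values. The values of hapln3.L were 13.2, 13.9 and 8.49 in R and 16.6, 23.3 and 17.5 in S, with R wholly below S (log2 difference -0.71, SE 0.28, adjusted p 0.284 from limma). Those of hapln3.S were 17.0, 19.2 and 15.5 in R and 9.13, 27.7 and 15.9 in S, a log2 difference of 0.11.

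Fibulin-1 and fibrillin-3 belong to the elastic fibres and microfibrils. The probeset of fbln1.L read 4.32, 5.70 and 3.39 in L, 106, 102 and 121 in R, and 64.5, 107 and 88.2 in S. All 3 probesets were lower in L than in S, with log2 differences of -4.28 for fbln1.L and of -6.08 and -4.61 for probesets 1 and 2 of fbn3.L. In the corneas the fbn3.L probesets gave log2 differences of R from S of 0.01 and -0.10, and fbln1.L gave 0.36 (95% interval -0.19 to 0.92).

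Fibronectin links cells to collagen through integrins. The 4 probesets of fn1.S were lower in L than in S. Probeset 1 read 13.3, 12.1 and 9.16 in L, 458, 598 and 598 in R, and 360.4, 688 and 473 in S. Probeset 4 read 22.3, 19.9 and 26.1 in L, 107, 119 and 93.9 in R, and 67.6, 127 and 91.1 in S. The log2 differences of L from S were -5.43 (SE 0.26) for probeset 1, -4.93 and -5.52 for probesets 2 and 3, which carry the same target number, and -2.03 (SE 0.24) for probeset 4, so that the tissue difference of 1 symbol ran from 4.07-fold to 46.0-fold with the probeset. For R against S the 4 differences lay between 0.14 and 0.21, and in all 4 the S1 value was the lowest and the S3 value the highest of the 6 corneas.

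SPARC is a collagen-binding protein of basement membranes and stroma, which the lens epithelium also makes. Of the called differences of L from S, its were the smallest. The probeset of sparc.S read 357, 354 and 321 in L, 655, 728 and 682 in R, and 557, 778 and 691 in S. That of sparc.L read 231, 238 and 205 in L, 486, 528 and 597 in R, and 473, 568 and 567 in S. The log2 difference of L from S was -0.96 (SE 0.17, adjusted p 0.00108) for sparc.S and -1.25 (SE 0.16, adjusted p 0.000163) for sparc.L from limma, or 1.95-fold and 2.38-fold. Those of R from S were 0.04 (95% interval -0.34 to 0.42) and 0.00 (-0.36 to 0.37).

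TGFBI is a secreted protein of the corneal stroma that binds collagen, and changes in the human gene cause corneal dystrophies. It showed the largest difference between R and S of the 48 probesets. The probeset of tgfbi.L read 1.07, 0.912 and 0.855 in L, 117, 159 and 118 in R, and 33.7, 79.7 and 61.6 in S. Each of the R arrays lay above all of the S arrays, and every lens array lay near the 5th percentile. The log2 difference of R from S was 1.24 (SE 0.30, 95% interval 0.56 to 1.92), or 2.37-fold, with an adjusted p of 0.101 from limma, which missed the threshold. The adjusted p ran from 0.0712 without S3 to 0.395 with a replicate block, and without S1 the difference was 0.89. Against the lens the log2 differences were -5.87 for L from S and -7.11 for L from R.

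Tenascin-C, a matricellular protein of wounds and of moving cells, was lower in L than in S on both probesets of tnc.L, with log2 differences of -3.58 and -3.54. Probeset 2 read 4.38, 1.78 and 2.80 in L, 49.3, 66.0 and 35.8 in R, and 26.8, 42.1 and 30.5 in S. Probeset 1 read 19.1, 33.1 and 15.9 in R, and 11.3, 21.0 and 12.8 in S. The log2 differences of R from S were 0.57 (95% interval -0.17 to 1.31) and 0.59 (-0.21 to 1.38) for probesets 1 and 2, with adjusted p of 0.457 and 0.482 from limma. On both probesets R2 was the highest array, and the groups overlapped.

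The thrombospondins are trimeric or pentameric matrix proteins, and their probesets disagreed. Thrombospondin-1 binds and activates TGF-beta, and probeset 2 of thbs1.L read 1.99, 1.21 and 3.56 in L, 7.93, 24.2 and 9.81 in R, and 12.4, 37.5 and 21.0 in S. It was lower in L than in S (log2 difference -3.38, adjusted p 0.000698 from limma), and its difference of R from S was -0.79 (95% interval -2.04 to 0.45). Probeset 1 of thbs1.L was also lower in L (-1.55, adjusted p 0.0161), a call lost without L1 (-1.29), without S3 (-1.28) and with 8 added to every intensity (-0.30).

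For thbs3.L the probesets went in opposite directions between lens and cornea. Probeset 2 read 22.2, 20.5 and 16.5 in L, 87.8, 107 and 80.1 in R, and 63.4, 86.0 and 70.5 in S, a log2 difference of L from S of -1.89. Probeset 1 read 2.75, 4.85 and 1.63 in L, 1.73, 1.42 and 2.77 in R, and 1.12, 1.07 and 1.12 in S, a difference of 1.34 (adjusted p 0.0144 from limma). The latter was at low intensity in every array. Its call was lost with 8 added to every intensity (0.27, adjusted p 0.0609) and with a replicate block (1.26, adjusted p 0.104 from limma). Its difference of R from S was 0.79, with no call. The homoeologs of thbs4 also differed. The probeset of thbs4.L was lower in L than in S (-1.55), a call lost without L2 (-1.48), L3 (-1.42), S3 (-1.11) or S4 (-1.45). It was also lost with 8 added to every intensity (-0.82), after quantile normalisation (-1.08) and with a replicate block (-1.47). For thbs4.S the log2 difference of L from S was 0.43 with no call, and it passed in the fit of L and S alone, with an adjusted p of 0.0499 from limma. Its difference of R from S was 0.40, with no call. A probeset annotated to both thbs4 homoeologs, not among the 48, gave -3.98 for L against S. Between R and S the same shared probeset gave -0.93 (adjusted p 0.257 from limma), with no call and each R value below every S value. The sign was opposite to that of thbs4.S and to that of thbs4.L (0.54, with no call).

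**Figure D2:**
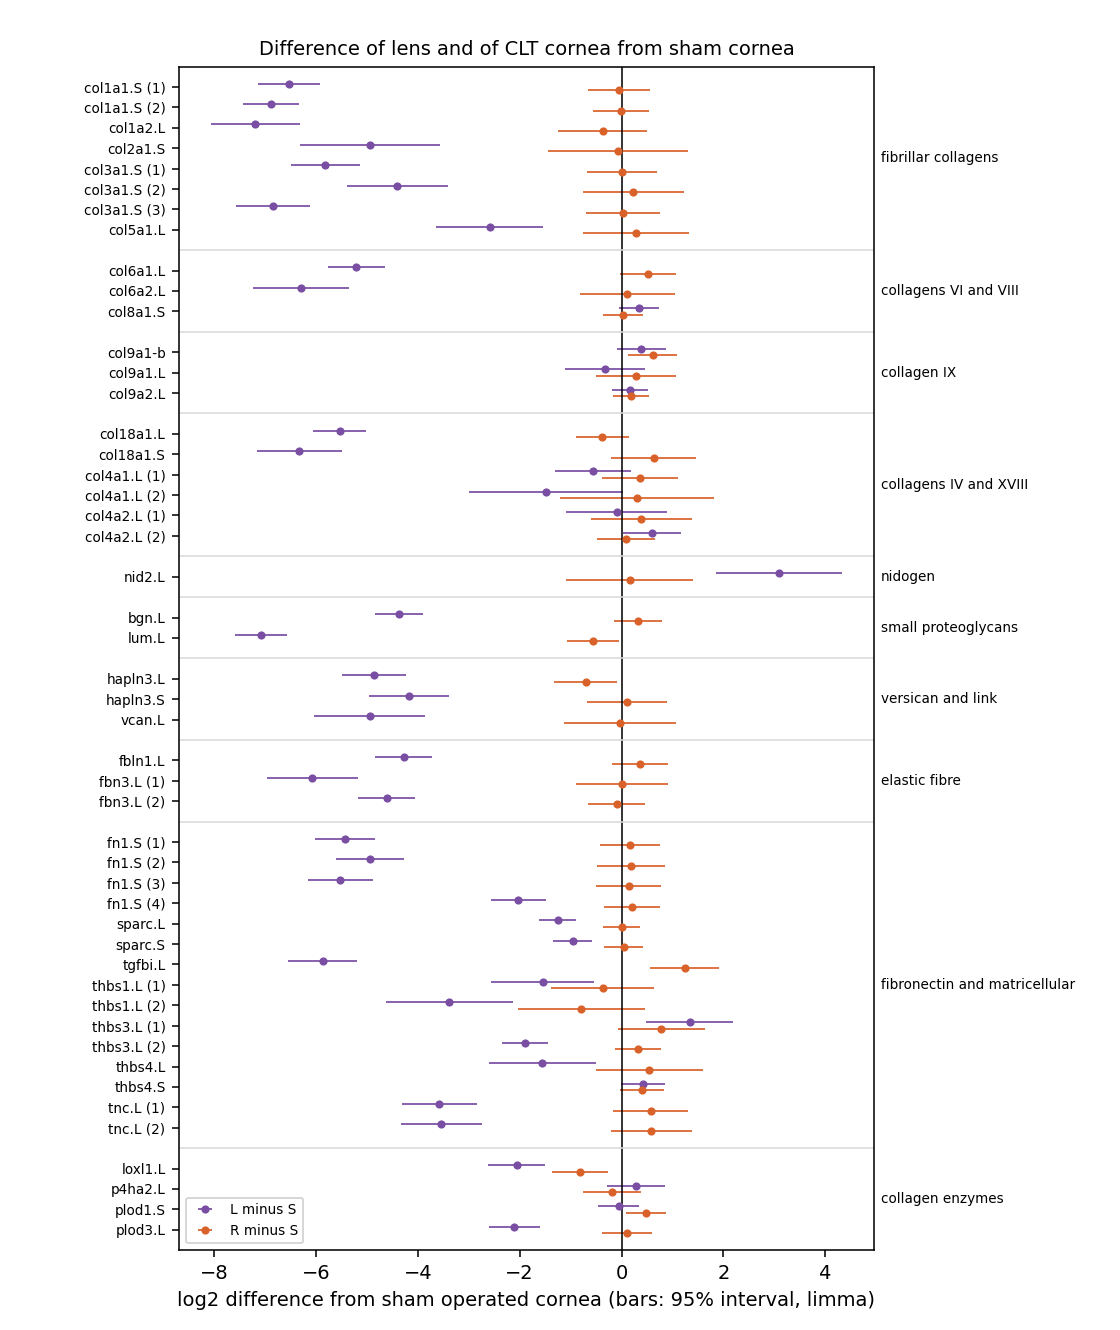
Log2 difference of L from S and of R from S for the 48 matrix probesets, with 95% intervals from limma, grouped by role. The L minus S points reach -7.19 and of those above 0 only nid2.L and probeset 1 of thbs3.L passed the test, whereas the R minus S points lie between -0.82 and 1.24.

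The enzymes that shape collagen divided into those with a clear cornea signal and those near the lower end of the scale. Lysyl oxidases cross-link collagen and elastin, and loxl1.L read 12.8, 14.6 and 11.5 in L, 25.8, 39.4 and 28.2 in R, and 40.1, 69.9 and 55.6 in S. All 3 R arrays lay below all 3 S arrays. The log2 difference of R from S was -0.82 (SE 0.25, 95% interval -1.37 to -0.26, 1.76-fold), with an adjusted p of 0.178 from limma that became 0.0931 without R2 and 0.452 without S4. In the lens loxl1.L was lower than in S, with a log2 difference of -2.06 (adjusted p 9.73e-05).

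The lysyl hydroxylases prepare collagen for cross-linking. The probeset of plod3.L read 10.5, 12.7 and 12.0 in L, 39.0, 62.3 and 65.8 in R, and 45.9, 49.9 and 55.5 in S, and was lower in L than in S (log2 difference -2.11). That of plod1.S read 1.38, 1.27 and 1.57 in L, 1.72, 2.15 and 2.32 in R, and 1.61, 1.38 and 1.40 in S. At this low signal the R values of plod1.S lay wholly above S (log2 difference 0.49, 95% interval 0.09 to 0.88, adjusted p 0.247 from limma). The prolyl hydroxylase subunit p4ha2.L, which stabilises the collagen helix, lay between 1.63 and 3.22 in the 9 arrays, with no call in any comparison.

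The basement membrane genes gave a mixed picture. Nidogen joins the laminin and type IV collagen networks. The probeset of nid2.L read 67.3, 59.6 and 51.3 in L, 10.8, 13.6 and 3.18 in R, and 3.76, 11.3 and 7.84 in S. Every lens array lay above every cornea array. The log2 difference of L from S was 3.09 (SE 0.55, adjusted p 0.0012 from limma), the only call for a higher level in L that was kept under all the alternatives tried. For R against S it was 0.16 (95% interval -1.08 to 1.40), one of the widest of the 48.

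Type IV collagen is the network of the lens capsule and of all basement membranes. None of the 4 probesets of col4a1.L and col4a2.L passed the test between L and S, with log2 differences of -0.57, -1.49, -0.09 and 0.59. Probeset 2 of col4a1.L read 2.61, 2.37 and 2.57 in L, 3.46, 19.0 and 10.1 in R, and 3.30, 17.0 and 6.25 in S. Its cornea arrays were far apart within each group, and without S1 the difference of L from S was -2.04, with an adjusted p of 0.0371 from limma. It also passed without R1 and in the fit of L and S alone (both -1.49, adjusted p 0.0414 and 0.0363). Probeset 2 of col4a2.L, at 1.45 to 2.99, passed in the other direction without S3 (0.88, adjusted p 0.00679). The other probesets lay between 1.19 and 5.88 in all arrays.

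Type XVIII collagen is a heparan sulphate proteoglycan of epithelial basement membranes. Both homoeologs were lower in the lens. The probeset of col18a1.L read 0.990, 0.998 and 0.845 in L, 26.5, 45.5 and 31.8 in R, and 36.8, 51.9 and 43.6 in S. That of col18a1.S read 1.54, 3.23 and 1.48 in L, 174, 206 and 394 in R, and 134, 161 and 175 in S, a log2 difference of L from S of -6.32. In the corneas the homoeologs had opposite signs, with log2 differences of R from S of -0.37 (95% interval -0.89 to 0.14) and 0.63 (-0.21 to 1.47), and the latter rested largely on R3.

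The comparison of L with R uses the same L arrays as that of L with S. A total of 36 of the 48 probesets were lower in L than in R, where 30.2% of all were, and nid2.L alone was higher, where 18.6% of all were, by 2.93 on the log2 scale (SE 0.55, adjusted p 0.00177 from limma). The median log2 difference was -4.14 over the 48 and -0.07 over all. Among probesets with a mean log2 intensity of at least 2, 34 of 35 matrix probesets were lower in L, beside 3774 of 6869. Here too the filter let through probesets that were high in the cornea alone. Calls of this comparison that were not made between L and S were those of plod1.S (-0.54, adjusted p 0.028) and of probeset 1 of col4a1.L (-0.93, adjusted p 0.0415). Neither was stable. The former was lost without L1 (-0.53), L2 (-0.47), R2 (-0.51) or R3 (-0.45), and the latter without L2 (-0.97), L3 (-0.68), R3 (-0.62), S1 or S4 (both -0.93). The former was also lost with 8 added to every intensity (-0.10), the latter with 1 added (-0.68) or 8 added (-0.25), and both in the fit of L and R alone. Leaving out 1 array also gained calls, those of probeset 2 of col4a1.L without R1 (-2.47), S1 or S3 (both -1.80) and of col9a1.L without R3 (-1.01). Probeset 1 of thbs1.L gained one without R1 (-1.52), probeset 1 of thbs3.L without L3 (0.94) and probeset 2 of col4a2.L without S3 (0.51). Probeset 2 of col4a1.L also passed after quantile normalisation (-1.59), after the filter on low values, in the fit of L and R alone and with trended and robust moderation, and probeset 1 of thbs1.L with the last of these (-1.18). For loxl1.L the difference was -1.24 (adjusted p 0.00241), and after quantile normalisation it was -0.29, with no call.

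The matrix probesets rose and fell together among the cornea pools. Of the 48, 38 had S1 lowest and S3 highest of the S arrays, an order found in 28.4% of all probesets. In 41 of the 48 S4 lay between S1 and S3, beside 48% of all. R2 was the highest R array in 31 of the 48, and in 31.9% of all. Among probesets with a mean cornea intensity of at least 10, that S order held in 30 of 34, beside 34.9% of all 5439. R2 was the highest R array there in 24 of 34, beside 40.2%. Taking the 34 probesets with a mean cornea intensity of at least 10, the median log2 deviation from the mean of the 6 corneas was -0.52 in S1, 0.40 in S3 and -0.04 in S4. In R1, R2 and R3 it was -0.16, 0.21 and 0.00. Over all 5439 probesets at this level the medians were 0.00, 0.11 and -0.04 in S1, S3 and S4. They were -0.05, 0.06 and -0.03 in R1, R2 and R3. S3 and R2 were thus also the highest of their groups over all probesets, by smaller amounts. The medians of 28 epithelium marker probesets were 0.11, 0.20 and 0.13 in the S arrays and -0.23, -0.19 and -0.09 in the R arrays. For epithelium S1 lay above every R array, but it was still the lowest S array, as it was for matrix genes. The S arrays lay closer together for epithelium than for matrix. The part that the share of stroma in each pool had in the matrix values was not tested.

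**Figure D3:**
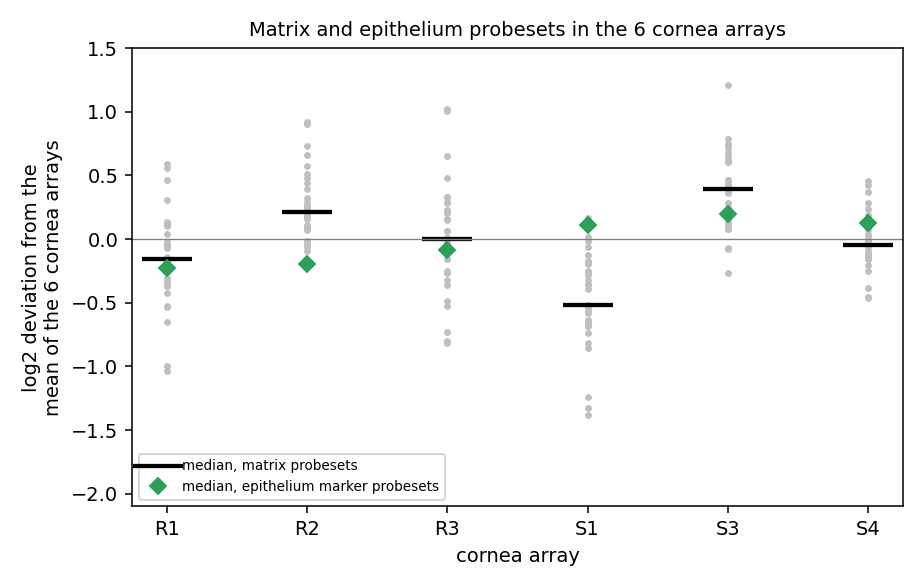
Log2 deviation of 34 matrix probesets (grey points, 1 per probeset) from their own mean over the 6 cornea arrays, for each array, with their median (black bar) and the median of 28 epithelium marker probesets (green diamond). The matrix median is -0.52 in S1 and 0.40 in S3, while the epithelium medians of the S arrays lie between 0.11 and 0.20.

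Among probesets with a mean cornea intensity of at least 10, the median SD of log2 values in S was 0.384 over the 34 matrix probesets. Over all 5439 such probesets it was 0.178, while in R the values were 0.310 and 0.285. R2, the highest R array for matrix, also had the retina sum of 664. Its crystallin and lens fibre sum was 9.69, the lowest of the R arrays, against 55.3 in R1 and 24.5 in R3. The part of retinal tissue or of the progress of CLT in the matrix values was not tested.

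Since col1a1.S moved with the other matrix genes, each probeset was also divided by probeset 1 of col1a1.S on the same array. Of the other 47, the ratio was wholly higher in R than in S for 6 and wholly lower for 4, where 8.15% and 5.96% of all probesets were. An exact permutation test of 3 arrays against 3 gives a p of 0.1 for each of these, the smallest it allows, so no ratio could pass 0.05. As the divisor was chosen for moving with the other matrix genes, the shares over all probesets are not a like background. The ratio of tgfbi.L to col1a1.S, scaled to the mean of the S arrays, was 2.41, 2.63 and 2.30 in R and 0.752, 1.27 and 1.05 in S. The R values were closer to each other than the intensities had been, and the log2 difference was 1.29. The other ratios that were wholly higher were those of col18a1.S (0.68), probeset 2 of tnc.L (0.63), col6a1.L (0.57), bgn.L (0.37) and probeset 2 of thbs3.L (0.37).

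The ratios that were wholly lower in R belonged to loxl1.L (-0.77), hapln3.L (-0.66), lum.L (-0.52) and col1a2.L (-0.32). For lum.L the ratio was 0.647, 0.835 and 0.629 in R and 1.02, 0.949 and 1.04 in S. For loxl1.L it was 0.543, 0.661 and 0.562 in R and 0.914, 1.13 and 0.967 in S. For both genes each R ratio lay below every S ratio. Both this divisor and probeset 2 of col1a1.S were chosen after the data were seen. With probeset 2 as the divisor, 6 ratios were wholly higher and 3 wholly lower of 46, where 6.58% and 4.65% of all probesets were. Of the 10 ratios, 6 kept their place. These were tgfbi.L, col18a1.S, col6a1.L, col1a2.L, hapln3.L and loxl1.L, so the ratios of bgn.L, lum.L, thbs3.L and tnc.L depended on the divisor.

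**Figure D4:**
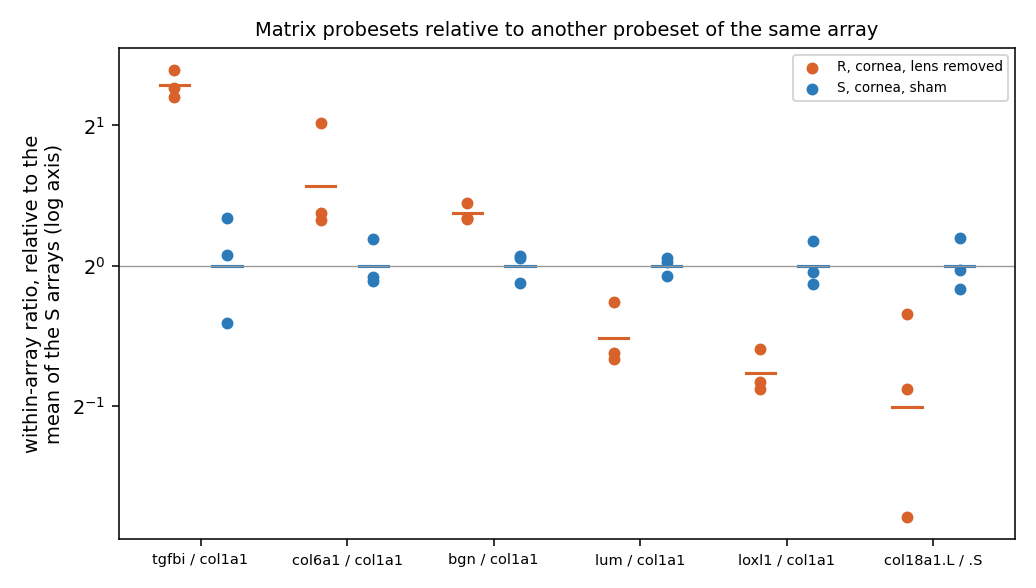
Ratio of a matrix probeset to another probeset of the same array, relative to the mean of the S arrays (log axis), for 5 probesets over col1a1.S and for col18a1.L over col18a1.S, with 1 point per array and a bar at the geometric mean of the group. The tgfbi.L ratios lie at 2.30 to 2.63 in R against 0.752 to 1.27 in S, and the ratio of the col18a1 homoeologs lies at 0.288 to 0.787 in R against 0.891 to 1.15 in S.

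The genes with more than 1 probeset allowed the same comparison within a gene. There were 21 pairs of probesets in 14 genes, of which 5 were pairs of homoeologs, and in 3 pairs the within-array ratio did not overlap between R and S, each with an exact permutation p of 0.1. Over all 4211 pairs of probesets of 1 gene on the array 20.4% did not overlap, and 3 of 21 is no larger a share. For col18a1 the .L to .S ratio, scaled to the mean of the S arrays, was 0.544, 0.787 and 0.288 in R and 0.979, 1.15 and 0.891 in S (log2 difference -1.01). For hapln3 the .L to .S ratio was 0.778, 0.723 and 0.546 in R and 1.82, 0.842 and 1.10 in S (-0.82). The third was the pair of thbs1.L probesets (0.42). The homoeologs of sparc gave -0.04 with overlapping ratios.

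Genes outside the 48 that serve collagen were described in the same way, with 1 probeset per gene, the one of highest mean. The shares over all probesets are therefore not a like background for these lists. Of 19 measured genes of collagen folding, processing and secretion, 14 were lower in L than in S, where 30.6% of all probesets were, none was higher, and none passed the test between R and S. They included fkbp10.L, a collagen chaperone (means of 1.29 in L, 50.0 in R and 33.9 in S, a log2 difference of L from S of -4.73). The prolyl 3-hydroxylase p3h1.L (1.77, 54.9 and 42.0) gave -4.60, and the procollagen C-proteinase enhancer pcolce.S (3.61, 57.0 and 54.9) gave -3.99, both lower in L. The collagen chaperone serpinh1.S was lower in L (-1.25), with means of 6.43, 17.4 and 15.6. The smallest p of the list in both comparisons belonged to tmem38b.L, an ion channel of the endoplasmic reticulum that collagen folding needs in humans. It read 13.1, 11.4 and 13.0 in R and 22.3, 19.4 and 19.4 in S. Each R value lay below every S value, with a log2 difference of R from S of -0.70 (adjusted p 0.108 from limma), and L was lower than S by a log2 difference of -3.88. Next for R against S came fkbp10.L (0.51) and tll2.L (-0.43), with no call. The summed intensity of the list was 285 to 321 in L, 945 to 1051 in R and 911 to 1125 in S.

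Of 19 matrix receptors, 8 were lower and 4 were higher in L than in S, where 30.6% and 22.9% of all probesets were, and none passed the test between R and S. The integrin subunit itga3.L (log2 difference -3.72), the syndecan sdc4.S (-2.82) and the collagen receptor kinase ddr1.L (-1.83) were lower in L, while itgb5.L (1.53), sdc1.L (1.35), dag1.L (1.03) and itgb6.L (0.70) were higher. The smallest p of the receptors between R and S belonged to itgb5.L (1.20, adjusted p 0.166 from limma), sdc1.L (0.92) and itgb2.L (0.48). Of 15 other matrix proteins, 8 were lower in L than in S and 2 were higher, beside the same 30.6% and 22.9%, and none passed the test between R and S. The latent TGF-beta binding protein ltbp1.S (-5.24), ccn1.S (-5.14), emilin1.L (-4.08) and mfap2.L (-3.65) were among the lower ones. The higher ones were the matrix Gla protein mgp.L (2.97) and vitronectin (vtn.L, 1.78). The smallest p of these between R and S belonged to ogn.L, the small proteoglycan osteoglycin, which was near the lower end of the scale. It read 1.02, 1.11 and 1.25 in R and 1.68, 1.92 and 1.99 in S, a log2 difference of -0.72 with an adjusted p of 0.0801 from limma. In the corneas the microfibril protein mfap2.L had means of 44.0 ± 4.06 in R and 20.7 ± 9.18 in S (SD, n = 3), with an adjusted p of 0.118 from limma. The values of ccn1.S were 28.2 ± 2.09 in R and 106 ± 23.8 in S (SD, n = 3), with an adjusted p of 0.103 from limma.

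Markers of cell types were read beside these genes. For their counts between L and S, 30.6% of all probesets were lower in L and 22.9% were higher. Of 6 stroma and fibroblast markers outside the 48, aldh1a1.S (-5.77) and meox2.S (-0.91) were lower in L than in S, and ptgds-b (7.73) and pdgfra.L (1.06) were higher, so this list did not mark the cornea as a whole. None of them passed the test between R and S, where meox2.S (0.51), aldh1a1.S (-0.65) and pdgfra.L (0.81) had the smallest p, and they summed to 52.0 to 58.3 in R and 57.9 to 63.0 in S. All 17 epithelium markers were lower in L, with a median log2 difference of -5.81, with the smallest p for grhl1.L (-6.25), cldn1.S (-7.49) and krt7.L (-7.71). None passed the test between R and S, where dsp.L (-0.67), grhl1.L (-0.43) and tp63.L (-0.65) had the smallest p, and the sums were 1939 to 2091 in R and 2260 to 2630 in S. Leukocyte markers were lower in L in 6 of 7, with the smallest p for mpo.L (-6.26), lcp1.S (-4.20) and cd74.L (-6.30), and summed to 148 to 253 in R and 213 to 238 in S. The same genes had the smallest p between R and S, with -0.27, -0.31 and -0.64. Of 7 endothelium markers 2 were lower and 2 were higher in L, near the shares over all probesets. Their sums were 18.8 to 20.2 in L, 13.4 to 24.4 in R and 10.5 to 16.1 in S. Of these flt1.L (3.62), aplnr.L (1.25) and pecam1.L (-1.05) had the smallest p between L and S, and egfl7.S (0.97), erg-b (0.47) and fli1.S (0.39) between R and S. Of 3 cartilage markers cnmd.L was higher in L, by 1.36, and sox9.S and matn1.L gave -0.40 and 0.36. For R against S these gave 1.13, 0.38 and 0.28, with no call.

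Of 14 skeletal muscle markers 5 were higher and 2 were lower in L than in S, where 22.9% and 30.6% of all probesets were, and 1, tnnt3.S, was higher in R than in S, by 0.96 (adjusted p 0.0202 from limma). The smallest p between L and S belonged to ckm.L (-5.20), tnnt3.S (1.74) and atp2a1.S (-1.51), and after tnnt3.S those between R and S to tnni2.S (1.30) and myf6.L (0.59). The muscle sums were 212 to 220 in R and 192 to 236 in S, and came largely from ckm.L and atp2a1.S. Means of ckm.L were 76.1 in R and 89.2 in S, and those of atp2a1.S were 109 and 100. Every other muscle marker had a mean of 11.3 or less in both groups, and acta1.S had means of 1.10 in R and 1.03 in S. Of 13 retina markers 7 were higher in L than in S, where 22.9% of all probesets were. The smallest p belonged to nrl.S (4.98), rom1.L (6.40) and rpe65.S (0.72). In L1 to L3 nrl.S read 73.0, 68.8 and 67.0 and rom1.L read 52.7, 84.2 and 24.1. So nrl.S did not follow rom1.L, and its lens values were not taken as a sign of retina. Between R and S rom1.L, a protein of photoreceptor discs, was higher in R by 6.54 (adjusted p 0.0267 from limma). Next came prph2.S (3.22) and guca1a.L (2.14) with no call. The 7 crystallin and lens fibre markers were all higher in L, by a median of 9.65, with the smallest p for cryaa.S (9.45), lim2.L (9.65) and crybb2.L (8.33). None passed the test between R and S, where cryba1.L (1.82), crybb1.L (2.04) and cryba2.S (1.19) had the smallest p. The part of these cells in the matrix results was not tested.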

How the data were processed

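Per the labels and the study's methods, the authors amplified RNA of each pool with a NuGEN kit, hybridised it to Affymetrix *Xenopus laevis* GeneChips and computed probeset intensities by RMA in GenePattern. The deposited values are intensity values on a linear scale, and the version and options of RMA were not given in the sources used here. Of 15611 probesets, 135 controls were left out. The platform annotation gave 1 symbol for 9296, several for 195 and none for 5985. All 48 matrix probesets were found by gene ID in RefSeq's gene table. A further 3 probesets with 2 symbols matched and were not members.

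Log2 values were fitted in limma 3.58.1 under R 4.3.3 by lmFit and eBayes with 6 residual degrees of freedom. Tests were two-sided and adjusted by Benjamini and Hochberg's method. Tables were made with python 3.11.15. The fit was also run on simulated data with independent errors and no lens difference, which is a test of the code alone. Values of 1 array were compared between probesets only as ratios, by exact permutation.

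Lists held collagen folding genes, matrix receptors, other matrix proteins and markers of stroma, epithelium, cartilage, endothelium, skeletal muscle, retina, leukocytes and lens, with the probeset of highest mean for each gene. The members and lists were chosen with earlier results of these data known. Named were, in each role, the 3 probesets with the smallest p between R and S, the 10 with the largest called differences between L and S, every probeset of the main stroma, basement membrane and cross-linking genes, and of each list the 3 members with the smallest p between R and S and between L and S. Others were named to account for every member or list call.

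Alternatives were offsets of 1 and 8, quantile normalisation, median centring, a filter at a mean log2 intensity of 2, 2-group fits, trended and robust eBayes, a replicate block and leaving out each array. No detection calls were used, and the number of arrays limits the precision.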

Additional observations from a re-analysis of the deposited data

How the results depend on the processing

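Between R and S no matrix probeset passed the test under any alternative tried, 0 higher and 0 lower throughout, and none of 803 single values changed its call, while 63 changed sign, 47 of them on leaving out an array. Between L and S the count of higher probesets was 2, and it was 1 with 8 added, 1 after the filter on low values and 1 with the replicate block. It was 3 in the fit of L and S alone and 3 with trended and robust moderation. Leaving out 1 array gave 2 to 3 higher and 33 to 36 lower between L and S, and 1 to 2 higher and 34 to 38 lower between L and R. The higher count between L and R was 2 without L3, through thbs3.L (0.94), and without S3, through col4a2.L (0.51). Other settings gave 33 to 36 lower between L and S and 34 to 38 between L and R. Of single values, 12 calls were lost and 7 gained between L and S, and 17 lost and 14 gained between L and R, with none reversed. Quantile normalisation turned the split over all probesets between L and S from 3539 higher and 4732 lower to 4115 and 3561, and between L and R from 2881 and 4674 to 3856 and 3354. It moved the median of all probesets from 0.02 to 0.14 between L and S and from -0.07 to 0.11 between L and R, and the matrix median between L and S from -3.56 to -3.25.

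The labels number the arrays but tie no lens pool to a cornea pool. The deviations of same-numbered arrays correlated at 0.02, 0.13 and 0.09 for L with R and at -0.10 to 0.06 for pairs with S, not above 0.1 in every pair, so the numbers were not taken as pairs. Each L array did correlate best with the R array of its own number. The lenses came from tadpoles whose corneas were later used for R, so the design allows such a link. Which lens pool matches which cornea pool is not stated. The replicate block also grouped S arrays by number, though the sham corneas came from other tadpoles. With the replicate block the counts were 1 higher and 34 lower between L and S, 1 and 36 between L and R, and 0 and 0 between R and S. The block lost the calls of probeset 1 of thbs3.L (adjusted p 0.104) and of thbs4.L (0.122) between L and S, and of plod1.S (0.0859) and probeset 1 of col4a1.L (0.102) between L and R, where probeset 2 of col4a1.L (0.0412) and probeset 1 of thbs1.L (0.0199) gained one in limma. Over all probesets the block moved the R and S counts from 75 higher and 99 lower to 5 and 8. The filter on low values kept 35 of the 48. Over all probesets the R and S counts were 37 and 43 in the fit of both groups alone, 128 and 206 with 8 added, and 22 to 123 higher and 38 to 181 lower on leaving out 1 array.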
